A study of Mus musculus with 12 samples.

Results

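S1pr1, S1pr4, S1pr5, Klf2 and Cd69 were taken by symbol as a named set of 5 genes among the 33696 in the count matrices, and they were followed across T cell lineages, Kaede colours and treatments of tumour-infiltrating T cells. Their identifiers in the files are ENSMUSG00000045092 for S1pr1, ENSMUSG00000044199 for S1pr4, ENSMUSG00000045087 for S1pr5, ENSMUSG00000055148 for Klf2 and ENSMUSG00000030156 for Cd69. Live CD90.2+ cells were sorted from tumours of MC38, a mouse colorectal cancer line, grown in Kaede het mice, whose cells carry a green fluorescent protein that turns red under violet light. The tumour-draining lymph node (TdLN) was lit on day 14, so that a red cell in the tumour had been in the lit node, and a green cell had not been converted or no longer showed it. All mice carried the Kaede allele, the tumour and the lit node, and the 6 conditions were 12 Gy radiation (RT) with FTY720 at day 3, FTY720 alone at day 3, RT at day 3, RT at day 1, no treatment (NT) at day 3 and NT at day 1. RT followed the photoconversion at once, FTY720 (10 µg, intraperitoneal) was given on day 15, and tumours were taken 24 h (day 15, here day 1) or 72 h (day 17, here day 3) after RT.

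Each condition had 2 replicates, each a pool of 4 tumours from 4 mice, so the spread between mice within a pool was not measured. The 12 pools were hashed by colour with antibody tags into 24 samples and loaded in 4 wells. In each replicate the 3 treated day 3 conditions (RT with FTY720, FTY720 alone and RT) lay together in one well, and NT at both days lay with RT day 1 in another. RT against NT at day 3, FTY720 against NT and RT at day 3 against RT at day 1 were therefore comparisons across wells, in which treatment and well cannot be told apart. The other comparisons of 2 conditions lay within wells, and the means over several comparisons hold 1 across wells.

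Of 2816 barcodes, 2740 passed the filters on genes and mitochondrial UMIs, and a hashed sample held between 17 and 322 of them, with a total depth of 337319 to 7891316 UMIs; no barcode was shared between wells. Cells were placed by their own UMIs: 1542 CD8 cells (Cd8a, no Cd4 or Foxp3; 56.3%), 557 Treg cells (Foxp3, no Cd8a; 20.3%) and 494 conventional CD4 cells, here Tconv (Cd4, no Foxp3 or Cd8a; 18.0%), with 147 cells in none of these. Values are UMI counts summed per pool, colour and lineage over at least 5 cells, scaled to the UMI total of the sum (CPM). T cell markers (Cd3e, Cd3g, Trac, Thy1) summed to 1869 to 4315 CPM in every sum. Of the endothelial markers, Pecam1 was present and Cdh5 and Kdr were at or near 0. Myeloid markers summed to at most 117 CPM and tumour or epithelial ones to at most 78.4 CPM, both in red Treg sums. Treg markers (Foxp3, Il2ra, Ikzf2, Ctla4, Tnfrsf18) had a median of 8113 CPM in red and 7475 CPM in green Treg sums. In red and green Tconv sums it was 1460 and 1285 CPM. Whether Tconv cells include Treg cells without a Foxp3 UMI was not tested.

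Sphingosine 1-phosphate (S1P) is a lipid that is abundant in blood and lymph and scarce inside tissues. T cells sense this gradient through S1P receptor 1, encoded by S1pr1, and follow it out of lymph nodes and tissues. Klf2 is the transcription factor that drives S1pr1, and CD69, a surface protein induced by antigen and by interferon, binds the receptor and pulls it off the surface. S1pr4 encodes another lymphocyte receptor for S1P, and S1pr5 encodes one known from NK cells and from effector CD8 cells that recirculate. FTY720 is phosphorylated in the body, binds all of these receptors except the one encoded by S1pr2, and drives S1P receptor 1 into the cell, so that lymphocytes are held in lymph nodes. Its action on the receptor protein is not something that a count of mRNA measures.

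The colour of a hashed sample rests on its tag, and the sources differed on it. The 15-base tags below are shown because the same tag carried opposite colour names in the 2 replicates. Tags C0301, C0303 and C0305 were named red in the replicate 1 matrices and green in the replicate 2 matrices, and C0302, C0304 and C0306 the other way round.
C0301: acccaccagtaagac
C0302: ggtcgagagcattca
C0303: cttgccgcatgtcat
C0304: aaagcattcttcacg
C0305: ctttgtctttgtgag
C0306: tatgctgccacggta
The sample labels, in contrast, listed the same tag numbers for the same colours in both replicates. The names in the matrices were used here. Each sequence was given its tag number by matching the replicate 1 names to the replicate 1 labels. The 0 differing tags in replicate 1 were therefore fixed in advance. With these numbers the names differed from the labels for 12 of 12 tags in replicate 2. By this matching both sources name the same colours in replicate 1, and which replicate departs from the labels was not tested. The differences of S1pr1, S1pr4, Klf2 and Cd69 between red and green, the shares of cells with S1pr1 and the S1pr5 counts are therefore also given within replicate 1 and with the colours of the labels.

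Promoter windows from RefSeq (build GRCm38.p6, 250 bases before to 50 bases after the start) were at hand for 3 of the 5 genes. They are shown because Klf2 binds CACCC boxes; the capitals mark CACCC or its reverse complement GGGTG.
S1pr4, chr10:81500088-81500387, minus strand: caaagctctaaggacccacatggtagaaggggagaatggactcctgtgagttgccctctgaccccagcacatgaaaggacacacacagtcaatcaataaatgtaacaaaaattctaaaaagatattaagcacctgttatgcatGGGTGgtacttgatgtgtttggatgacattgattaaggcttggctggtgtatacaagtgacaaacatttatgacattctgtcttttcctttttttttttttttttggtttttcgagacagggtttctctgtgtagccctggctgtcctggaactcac
S1pr5, chr9:21248394-21248693, minus strand: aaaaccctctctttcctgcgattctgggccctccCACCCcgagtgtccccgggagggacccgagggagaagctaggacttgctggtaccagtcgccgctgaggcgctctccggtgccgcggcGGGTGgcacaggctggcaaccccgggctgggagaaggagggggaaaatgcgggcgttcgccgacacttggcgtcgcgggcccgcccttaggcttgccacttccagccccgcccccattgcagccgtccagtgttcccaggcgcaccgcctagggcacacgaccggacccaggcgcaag
Klf2, chr8:72318812-72319111, plus strand: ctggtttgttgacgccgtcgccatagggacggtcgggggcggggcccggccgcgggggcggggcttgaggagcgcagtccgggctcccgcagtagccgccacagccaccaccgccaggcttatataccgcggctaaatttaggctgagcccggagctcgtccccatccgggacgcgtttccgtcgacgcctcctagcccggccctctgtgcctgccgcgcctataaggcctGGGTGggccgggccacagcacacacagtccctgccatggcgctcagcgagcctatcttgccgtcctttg
A CACCC box on either strand stood once in the S1pr4 window, 2 times in the S1pr5 window and once in the Klf2 window, and 57.5% of all 32851 such windows held one. GTAAACA or TGTTTAC, the letters of a FOXO site, stood in none of the 3 and in 3.65% of all windows, and AGGTGT or ACACCT, a T-box site, in none of the 3 and in 13.7%. CACCTG or CAGGTG, an E-box that ZEB factors bind, stood only in the S1pr4 window of the 3 and in 20.2% of all. CAGGTG and AGGTGT share letters, so that one stretch can match both, and a match is a description of letters.

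S1pr1 separated the lineages, with the highest level in Tconv cells. Over pools with both colours summed, S1pr1 ranged between 86.8 and 314 CPM in Tconv cells (median 210; 196 ± 67.6, SD, n = 11), between 6.29 and 147 CPM in Treg cells (median 69.0; 76.2 ± 44.2, n = 12) and between 24.7 and 87.7 CPM in CD8 cells (median 53.6; 54.7 ± 19.4, n = 12). Tconv cells were above CD8 cells in 11 of 11 pools, and Treg cells were below Tconv cells in all 11. In edgeR's quasi-likelihood test over all genes, with the pool as a block and Benjamini-Hochberg adjustment, S1pr1 was higher in Tconv than in CD8 cells by 1.74 ± 0.18 on the log2 scale (± SE; adjusted p = 5.76e-09). It was lower in Treg than in Tconv cells, with a log2 change of -1.39 ± 0.19 (adjusted p = 7.38e-07). Treg and CD8 cells are neighbours in that order that the test did not separate: the log2 change was 0.34 ± 0.18 (adjusted p = 0.127), with Treg cells higher in 9 of 12 pools.

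**Figure D1:**
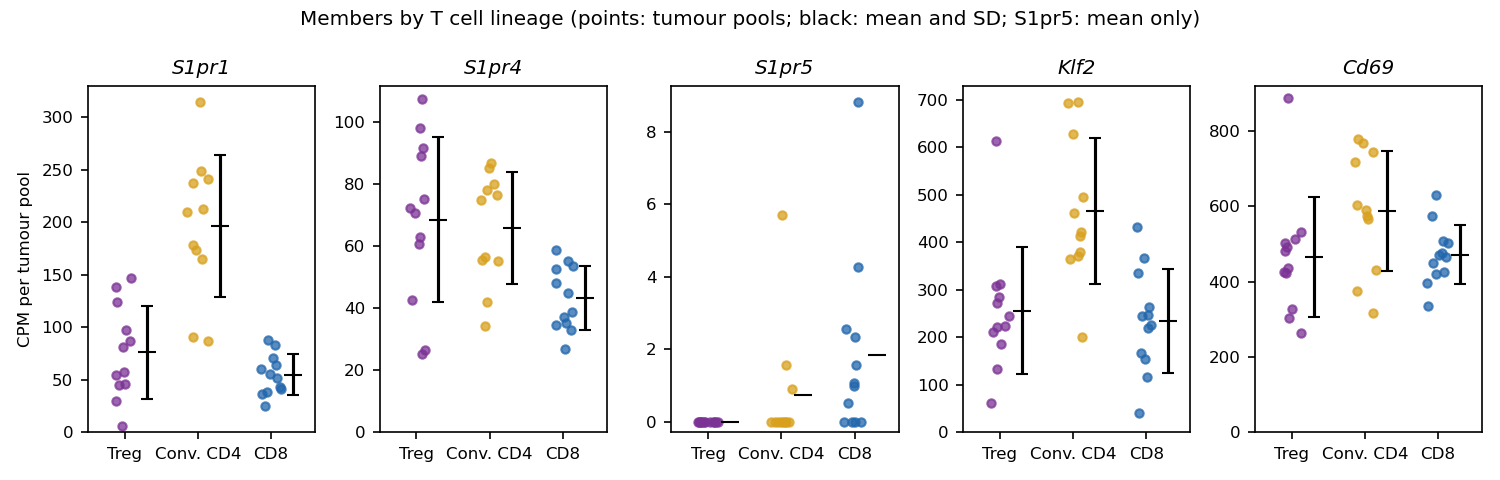
Level of each of the 5 genes (CPM, UMIs of both colours summed per tumour pool) in Treg, Tconv and CD8 cells; each point is 1 pool and the bar is the mean with its SD where drawn. S1pr1 lies highest in Tconv cells (mean 196 CPM) and S1pr5 was at 0 CPM in every Treg sum.

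Klf2 followed the same order of Tconv over the other lineages. It averaged 466 ± 153 CPM in Tconv cells (SD, n = 11), 256 ± 134 CPM in Treg cells (n = 12) and 235 ± 109 CPM in CD8 cells (n = 12), and the ranges overlapped. Klf2 was higher in Tconv than in CD8 cells by 0.94 ± 0.21 on the log2 scale (edgeR, adjusted p = 0.00106; 10 of 11 pools), and lower in Treg than in Tconv cells, with a log2 change of -0.96 ± 0.23 (adjusted p = 0.00147; higher in 2 of 11 pools). Between Treg and CD8 cells its log2 change was -0.02 (adjusted p = 0.960), and it turned positive in several alternatives, to 0.91 without cells that held at least 1 UMI each of Ccr7, the receptor that guides cells into lymph nodes, and Lef1, a factor of naive and memory T cells (Ccr7+ Lef1+ cells). Without those cells the log2 change between Treg and Tconv cells was -0.15 (adjusted p = 0.755). Ccr7+ Lef1+ cells were 35.5% of red and 15.4% of green Tconv cells, 13.3% of red and 6.04% of green Treg cells, and 30.03% of red and 20.4% of green CD8 cells. Within replicate 1 they were 26.2% of red and 17.8% of green Tconv cells, 13.9% of red and 4.08% of green Treg cells, and 20.1% of both red and green CD8 cells. The label colours gave 17.4% of red and 32.6% of green Tconv cells, 9.83% of red and 11.8% of green Treg cells, and 20.3% of red and 31.0% of green CD8 cells. The gate used unthinned counts, so these shares can depend on depth. Median depth was 22558 UMIs in CD8, 19761 in Treg and 15032.5 in Tconv cells. By matrix colour it was 21371 in red and 16537.5 in green Treg cells, and 22923 in red and 22122 in green CD8 cells.

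S1pr4 had another order. It averaged 68.5 ± 26.6 CPM in Treg cells (SD, n = 12), 65.9 ± 18.0 CPM in Tconv cells (n = 11) and 43.2 ± 10.3 CPM in CD8 cells (n = 12). It was higher in Treg than in CD8 cells by 0.63 ± 0.14 (log2, edgeR, adjusted p = 3.89e-04; 10 of 12 pools) and higher in Tconv than in CD8 cells by 0.44 ± 0.15 (adjusted p = 0.0203; 9 of 11 pools), a call that was lost in red cells alone and on leaving out FTY720 replicate 2, or replicate 1 of NT day 3 or of RT day 1. Treg and Tconv cells were not separated (log2 change 0.19, adjusted p = 0.396).

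Cd69 was high in all lineages, at 466 ± 159 CPM in Treg cells (SD, n = 12), 588 ± 159 CPM in Tconv cells (n = 11) and 471 ± 78.4 CPM in CD8 cells (n = 12). Its 1 call was a lower level in Treg than in Tconv cells (log2 change -0.32 ± 0.11, edgeR, adjusted p = 0.0267; higher in 2 of 11 pools). This call was lost on leaving out any 1 of 6 pools (replicate 1 of FTY720, NT day 1 and RT day 1, RT day 3 replicate 2, and both pools of RT with FTY720), and the log2 change was 0.05 in red cells alone. Of the 4 members that passed the filter on low counts, 1 was called in Treg over CD8 cells, where 43.2% of all 9833 genes tested were called. In Tconv over CD8 cells 3 were called, against 33.2% of all genes, and in Treg over Tconv cells 3 were called, against 29.7%. S1pr5 did not pass that filter.

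Among other genes of the pathway, S1pr2, whose receptor couples to Gna13 and holds lymphocytes in place, was higher in Treg cells (log2 change 1.30 ± 0.31, edgeR, adjusted p = 9.28e-04) and in Tconv cells (1.08 ± 0.34, adjusted p = 0.0134) than in CD8 cells, and S1pr3 was too low to test. Of the 13 genes of receptor signalling and desensitisation, all tested, 5 were higher and 2 lower in Treg than in CD8 cells, a comparison that called 43.2% of all genes, with a list median of 0.05 against -0.06 over all genes. Arrb1, a beta-arrestin that internalises receptors, was higher by 1.20 ± 0.25 (adjusted p = 2.13e-04) and Gna13, the G protein subunit downstream of S1pr2, by 0.76 ± 0.10 (adjusted p = 1.45e-07), while Grk6, a receptor kinase, was lower at -0.59 ± 0.13 (adjusted p = 6.50e-04). In Tconv over CD8 cells, where 33.2% of all genes were called, 5 of the 13 were higher and 0 lower (list median 0.13 against 0.00), led by Grk5, a receptor kinase, at 1.36 ± 0.33 (adjusted p = 0.00169). Of 12 genes that make, break down or export S1P, 5 were tested; in Treg over CD8 cells 3 were higher, among them the ceramidases Asah2 (1.34 ± 0.38, adjusted p = 0.00517) and Asah1 (0.86 ± 0.14, adjusted p = 8.82e-06), and Sgpp1, an S1P phosphatase, was lower at -0.36 ± 0.13 (adjusted p = 0.0211).

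Of all genes tested, 33.2% were called in Tconv over CD8 cells and 43.2% in Treg over CD8 cells. Among 11 Klf2 regulators and lymph node homing genes, 9 were higher and 0 lower in Tconv than in CD8 cells (list median 0.62 against 0.00 over all genes). The higher ones included Cxcr4, a chemokine receptor (log2 change 1.18 ± 0.16, edgeR, adjusted p = 1.38e-06), and Tcf7, a factor of naive and memory T cells (1.09 ± 0.16, adjusted p = 3.41e-06). In Treg over CD8 cells 4 were higher and 4 lower (list median -0.15 against -0.06): Tcf7 was at -4.08 ± 0.22 (adjusted p = 1.77e-15) and Ccr7 at -1.06 ± 0.38 (adjusted p = 0.0262), while Itgb7, an integrin of gut homing, was at 1.74 ± 0.12 (adjusted p = 1.67e-13) and Foxo3, a forkhead transcription factor, at 0.73 ± 0.18 (adjusted p = 0.00181). Of the 12 tissue residency genes, 3 were higher and 6 lower in Treg over CD8 cells (list median -0.29), with Itgae, the integrin that binds E-cadherin, at 2.72 ± 0.23 (adjusted p = 3.24e-11) and Zfp683, which encodes Hobit, at -5.05 ± 0.30 (adjusted p = 6.92e-15).

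The comparison of red with green cells asked how these genes differed between cells that had come through the lit node and the others of the same pools. S1pr1 was higher in red Tconv cells in every pool. It ranged between 151 and 441 CPM in red Tconv sums (median 271; 288 ± 80.6, SD, n = 9) and between 0 and 252 CPM in the green Tconv sums of the same pools (median 135; 131 ± 75.7), with the highest green sums inside the red range. Red exceeded green in 9 of 9 pools, by 1.18 ± 0.21 on the log2 scale (edgeR with the pool as a block, adjusted p = 0.00986), and an exact two-sided sign-flip test over pools gave p = 0.00391, the smallest it can give with 9 pools. Within replicate 1 the mean log2(CPM + 10) difference was 0.80 (3 of 3 pools) and within replicate 2 it was 1.73 (6 of 6 pools). The replicate 2 mean includes RT with FTY720, where 5 green Tconv cells held 0 CPM and 6 red ones 151 CPM. With the colours of the labels the change was -0.63, and without Ccr7+ Lef1+ cells it was 0.59 with an adjusted p of 0.540. Among Ccr7+ Lef1+ Tconv cells S1pr1 was 472 CPM for red against 218 CPM for green cells, and among the others 172 CPM for red against 117 CPM for green.

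Klf2 moved with S1pr1 in Tconv cells. It averaged 660 ± 259 CPM in red Tconv sums and 274 ± 176 CPM in green ones (SD, n = 9 each), higher in red in 8 of 9 pools, with a log2 change of 1.34 ± 0.27 (edgeR, adjusted p = 0.0265) and overlapping ranges of 332 to 1015 CPM in red and 0 to 511 CPM in green. The mean difference was 0.63 in replicate 1 (2 of 3 pools) and 2.22 in replicate 2 (6 of 6 pools). The latter includes the same small sums of RT with FTY720, at 0 CPM of Klf2 in 5 green cells and 602 CPM in 6 red ones. Much of the gap between the replicates can rest on them. With the colours of the labels it was -0.97, without Ccr7+ Lef1+ cells 0.35 (adjusted p = 0.873), and the call was lost on leaving out either NT day 3 pool, or replicate 2 of NT day 1 or of RT day 1. S1pr4 (0.44, adjusted p = 0.474) and Cd69 (-0.34, adjusted p = 0.686) did not pass. Their mean differences within replicate 1 were 0.61 for S1pr4 (3 of 3 pools) and 0.20 for Cd69 (2 of 3). Their changes under the label colours were 0.02 and 0.46.

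**Figure D2:**
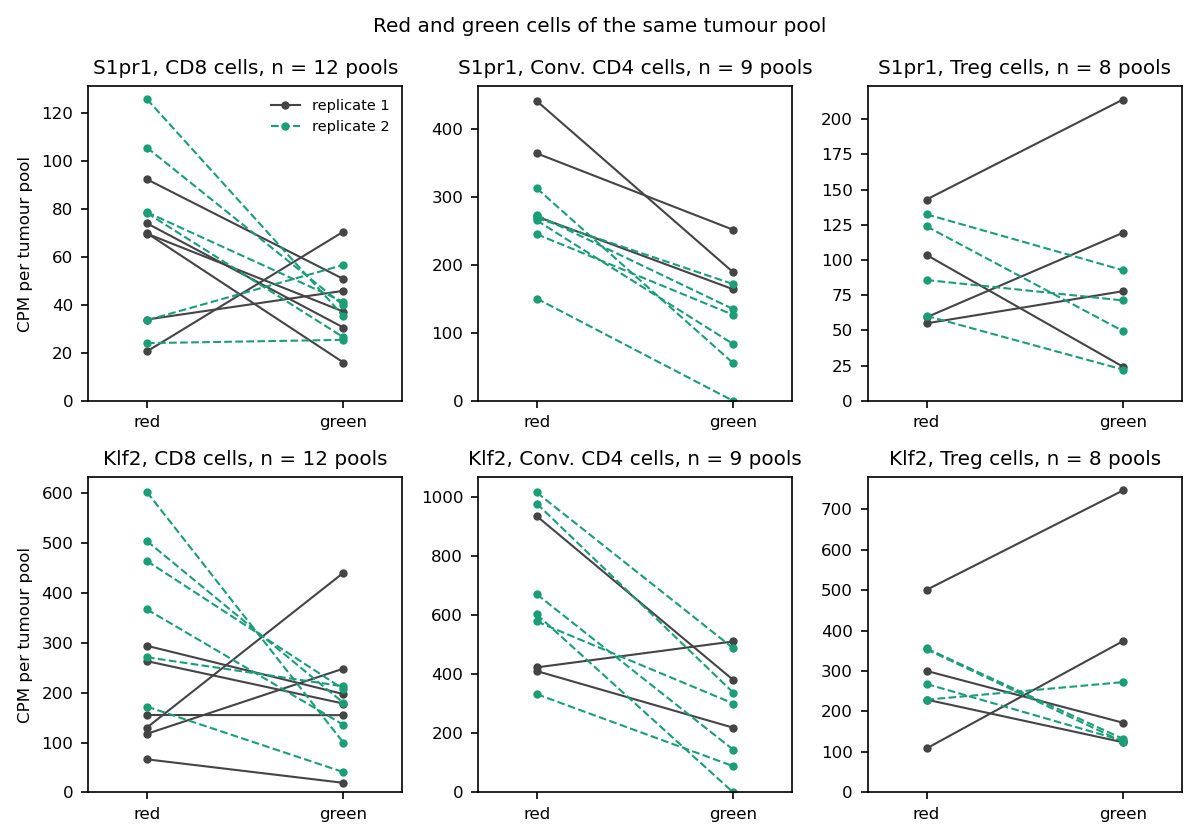
Level of S1pr1 and Klf2 (CPM) in red and green cells of the same tumour pool, by lineage. Lines join the 2 colours of a pool. S1pr1 is higher in red Tconv cells in 9 of 9 pools and in red CD8 cells in 8 of 12, with colours as named in the matrices.

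In CD8 cells S1pr1 also passed, with less even pools. Red CD8 sums ranged between 20.6 and 126 CPM (median 72.0; 67.2 ± 33.2, SD, n = 12) and green ones between 16.0 and 70.6 CPM (median 38.5; 39.7 ± 14.9). Red was higher in 8 of 12 pools, the log2 change was 0.90 ± 0.24 (edgeR, adjusted p = 0.0366), and the exact sign-flip test gave p = 0.0713. The 4 pools in which red was lower were among the small day 3 sums of the treated wells and RT day 3 replicate 1 had the lowest red value. The mean difference was 0.41 in replicate 1 (4 of 6 pools) and 0.70 in replicate 2 (4 of 6 pools), and with the colours of the labels the change was -0.28. The call was lost on leaving out any 1 of 7 pools, namely both replicates of NT day 1, NT day 3 and RT day 1 and RT day 3 replicate 2, but without Ccr7+ Lef1+ cells the change was 1.16 (adjusted p = 0.0171).

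Klf2 in CD8 cells averaged 284 ± 170 CPM in red and 176 ± 108 CPM in green sums (SD, n = 12 each), higher in red in 10 of 12 pools, and did not pass (log2 change 0.77 ± 0.28, edgeR, adjusted p = 0.129). Its replicates differed: the mean difference was -0.04 in replicate 1 (red 171 CPM, green 207 CPM) and 1.43 in replicate 2 (red 397 CPM, green 146 CPM), where red was higher in 6 of 6 pools, and with the colours of the labels the change was -0.83. Ccr7+ Lef1+ CD8 cells held 761 CPM of Klf2 in red and 495 CPM in green, against 155 CPM in red and 85.1 CPM in green among the other CD8 cells, and their pool shares ran up to 42.9% of red CD8 cells in NT day 3 replicate 2. S1pr4 averaged 47.8 ± 17.9 CPM over red and 37.7 ± 9.32 CPM over green CD8 sums (0.47 ± 0.16, adjusted p = 0.108), and Cd69 averaged 475 ± 91.4 CPM over red and 484 ± 154 CPM over green sums (0.08, adjusted p = 0.822). Within replicate 1 their mean differences were 0.28 for S1pr4 (5 of 6 pools) and -0.19 for Cd69 (3 of 6). Their changes under the label colours were 0.03 and -0.21.

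In Treg cells no member passed. S1pr1 averaged 95.5 ± 35.4 CPM in red and 83.9 ± 62.1 CPM in green Treg sums (SD, n = 8; log2 change 0.60 ± 0.25, edgeR, adjusted p = 0.279), and Cd69 554 ± 219 CPM in red and 370 ± 202 CPM in green (0.65 ± 0.21, adjusted p = 0.125; 6 of 8 pools; exact sign-flip p = 0.0469, not adjusted). Klf2 (0.52, adjusted p = 0.410) and S1pr4 (0.34, adjusted p = 0.414) did not pass. For S1pr1 the mean difference was -0.04 in replicate 1 (red 90.3 CPM, green 109 CPM; red higher in 1 of 4 pools) and 0.75 in replicate 2 (4 of 4). Within replicate 1 it was -0.16 for Klf2 (2 of 4 pools), 0.49 for S1pr4 (4 of 4) and 1.06 for Cd69 (3 of 4). Under the label colours the changes were -0.43 for S1pr1, -0.55 for Klf2, 0.17 for S1pr4 and 0.12 for Cd69. Of the 4 members tested, 1 was called in CD8 cells, where 4.9% of all genes tested were called, 0 in Treg cells, where 1.71% were, and 2 in Tconv cells, where 0.809% were. The colour effect on a member was not shown to differ between lineages: the nearest was Cd69 in Treg minus Tconv cells, 1.01 ± 0.34 (edgeR interaction term, adjusted p = 0.296). These terms called 0.0513% of all genes for Treg minus CD8, 0.0924% for Tconv minus CD8 and 0% for Treg minus Tconv cells. Nor was the colour effect shown to differ in CD8 cells between RT and NT at day 1, between days, or between FTY720 and none. S1pr4 was nearest, at -0.94 ± 0.30 for day 3 minus day 1 (edgeR, adjusted p = 0.480), where S1pr1 was at -0.74 ± 0.47. At most 0.0107% of all genes were called in these terms.

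After each cell was thinned to 5000 UMIs, the share of cells with an S1pr1 UMI was higher in red in each lineage by the matrix colours. S1pr1 was seen in 55.8% of red Tconv cells (95% exact interval 48.9 to 62.6) and 37.3% of green ones (31.4 to 43.5), in 30.3% of red Treg cells (25.7 to 35.3) and 17.6% of green ones (12.3 to 24.1), and in 27.4% of red CD8 cells (24.4 to 30.6) and 15.1% of green ones (12.4 to 18.0). Within replicate 1 the shares were 61.7% of red and 41.1% of green Tconv cells, 28.6% of red and 17.02% of green Treg cells, and 23.4% of red and 14.1% of green CD8 cells. Label colours turned them, to 42.1% of red and 49.6% of green Tconv cells, 22.5% of red and 28.9% of green Treg cells, and 18.3% of red and 25.5% of green CD8 cells. Without thinning these shares were 66.7% and 56.8% in red and green Tconv cells, 58.1% and 26.9% in red and green Treg cells, and 50.1% and 30.3% in red and green CD8 cells. For free RNA, Cd8b1, which Treg and Tconv cells should lack, was seen in 5.74% of red and 4.55% of green Treg cells. In Tconv cells it was seen in 3.72% of red and 2.69% of green ones. The S1pr1 shares of these lineages were higher. Cells with a Cd8a UMI had been left out of both lineages, so the Cd8b1 shares can understate free RNA. They give no level of free RNA for CD8 cells. Thinning left out 6 to 20 cells per lineage and colour, median depths were 14829 to 22923 UMIs, and the intervals cover counting error only.

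Some homing genes were called higher in red cells with the colours of the matrices. In CD8 cells, where 4.9% of all genes were called, 3 of 11 homing genes rose and 0 fell (list median 0.52 against -0.01 over all genes), namely Tcf7 (log2 change 0.78 ± 0.17, edgeR, adjusted p = 0.0131), Il7r, the interleukin 7 receptor (0.70 ± 0.17, adjusted p = 0.0229), and Itgb7 (0.66 ± 0.16, adjusted p = 0.0268). In Tconv cells, where 0.809% of all genes were called, 2 of 11 rose and 0 fell (list median 0.43 against 0.00), namely Ccr7 (1.68 ± 0.36, adjusted p = 0.0344) and Tcf7 (1.26 ± 0.16, adjusted p = 0.0018). In Treg cells, where 1.71% were called, 2 of 11 rose, Ccr7 (2.42 ± 0.33, adjusted p = 0.00261) and Klf3, a Klf2 relative (1.24 ± 0.25, adjusted p = 0.0183). None of the 11 to 12 receptor signalling genes tested and none of the 3 to 4 S1P metabolism genes tested was called between colours in any lineage.

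Residency genes were called in both directions, again with the colours of the matrices. Of all genes tested between colours, 4.9% were called in CD8, 1.71% in Treg and 0.809% in Tconv cells. In CD8 cells Itgae was higher in red (1.71 ± 0.25, edgeR, adjusted p = 0.00157), while Zfp683 (-1.48 ± 0.22, adjusted p = 0.00162) and Itga1, a collagen-binding integrin (-0.85 ± 0.15, adjusted p = 0.00516), were lower, with 1 rise and 2 falls among 12 genes. Cxcr6, a chemokine receptor of tissue T cells, was lower in red Treg cells (-1.69 ± 0.33, adjusted p = 0.0173) and in red Tconv cells (-1.04 ± 0.22, adjusted p = 0.0312), where P2rx7, a receptor for extracellular ATP, was lower too (-1.44 ± 0.28, adjusted p = 0.0188). Early activation genes rose in 7 of 13 cases in red CD8 cells (list median 0.84), led by Egr2, a factor induced by the T cell receptor (2.65 ± 0.27, adjusted p = 6.33e-05), and Ifng (1.79 ± 0.36, adjusted p = 0.00755). In red Treg cells 4 of the 13 rose and 1 fell, and in red Tconv cells 0 did, with 793 genes at an unadjusted p under 0.05 in that comparison. Of the 16 dissociation and heat shock genes, 0 of 16 tested were called in CD8 cells, 3 of 15 in Treg cells and 1 of 15 in Tconv cells, where Atf3, a stress factor, was lower in red (-1.64 ± 0.37, adjusted p = 0.0493). Of the called genes of all lists, 15 of 15 in CD8, 11 of 11 in Treg and 6 of 6 in Tconv cells had a mean difference of the same sign within replicate 1, whose pools also entered the calls. Under the label colours 0 of them were called, and 3 of 15, 4 of 11 and 0 of 6 had the same sign. Within replicate 1 the mean difference in CD8 cells was 0.90 for Itgae (5 of 6 pools), -1.03 for Zfp683 (0 of 6) and 1.25 for Egr2 (5 of 6). The label colours gave changes of -0.51, -0.11 and -0.61 for these genes. Their part in the differences of the members was not tested.

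Within CD8 cells, Klf2 and S1pr1 were found in the same cells. After thinning to 5000 UMIs, the 564 CD8 cells with a Klf2 UMI averaged 136 ± 48.5 CPM of S1pr1, against 21.7 ± 10.9 CPM in the 914 without one (SD over 11 pools). The mean difference of log2(CPM + 10) was 2.21, higher with Klf2 in 11 of 11 pools (exact two-sided sign-flip test, p = 0.000977, the smallest it can give; 0.00586 adjusted over the 6 relations tested). S1pr4 was at 64.7 ± 30.1 CPM with Klf2 and 29.7 ± 13.6 CPM without, a difference of 0.92 (9 of 11 pools, exact p = 0.0117, adjusted 0.0141). Without Ccr7+ Lef1+ cells the S1pr1 difference was 1.50 (7 of 10 pools, exact p = 0.0156, adjusted 0.0352) and that of S1pr4 0.50 (adjusted p = 0.299).

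**Figure D3:**
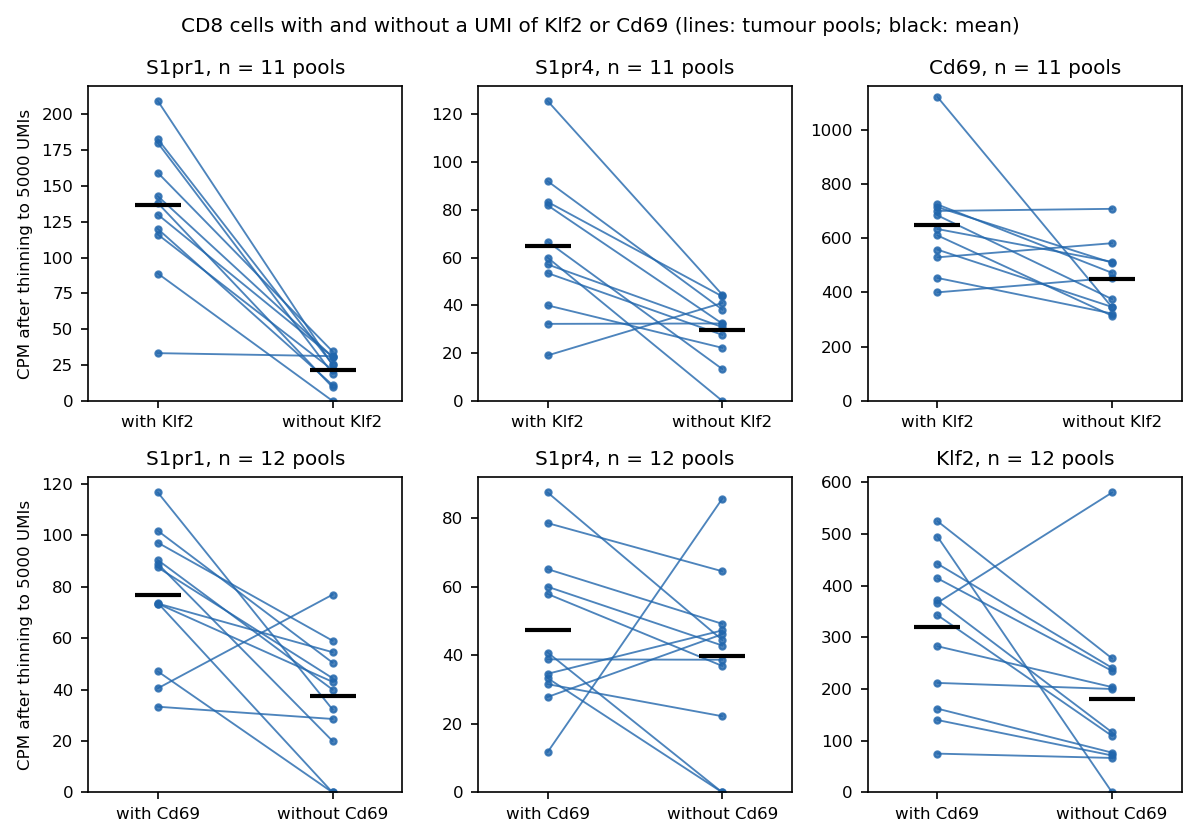
Levels (CPM after thinning each CD8 cell to 5000 UMIs) in CD8 cells with and without a UMI of Klf2 or of Cd69; lines join the 2 values of a tumour pool. S1pr1 is higher with Klf2 in 11 of 11 pools and higher with Cd69 in 11 of 12.

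CD8 cells with Cd69 mRNA had more S1pr1 mRNA than those without. S1pr1 was at 77.0 ± 25.6 CPM in the 1074 CD8 cells with a Cd69 UMI and 37.4 ± 22.9 CPM in the 429 without (SD, 12 pools), higher with Cd69 in 11 of 12 pools by 1.05 (exact p = 0.00342, adjusted 0.00781). Klf2 was at 319 ± 145 CPM with Cd69 and 180 ± 151 CPM without, higher in 11 of 12 pools by 1.11 (exact p = 0.00391, adjusted 0.00781). In the other direction Cd69 was at 648 ± 190 CPM with Klf2 and 449 ± 124 CPM without, a difference of 0.52 (8 of 11 pools, exact p = 0.00977, adjusted 0.0141). S1pr4 did not pass by Cd69 (47.3 ± 22.5 CPM with, 39.8 ± 24.2 CPM without, 0.34, exact p = 0.307). In green cells alone the S1pr1 difference by Cd69 was 0.83 (adjusted p = 0.082), and without Ccr7+ Lef1+ cells it was 0.47 (8 of 11 pools, adjusted p = 0.0352), while that of Klf2 was 0.95 (adjusted p = 0.0542). These are levels of mRNA, and surface CD69 was not measured.

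Ccr7+ Lef1+ CD8 cells held more S1pr1 than the rest, as a description, since 1 gate splits cells of the same pools. S1pr1 stood at 145 CPM inside the gate and 49.3 CPM outside it in red CD8 cells, and at 102 CPM inside and 18.3 CPM outside in green ones. Cd69 was at 521 CPM inside and 475 CPM outside in red cells and at 480 CPM inside and 374 CPM outside in green ones. In red Treg cells S1pr1 was at 93.1 CPM inside and 113 CPM outside.

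**Figure D4:**
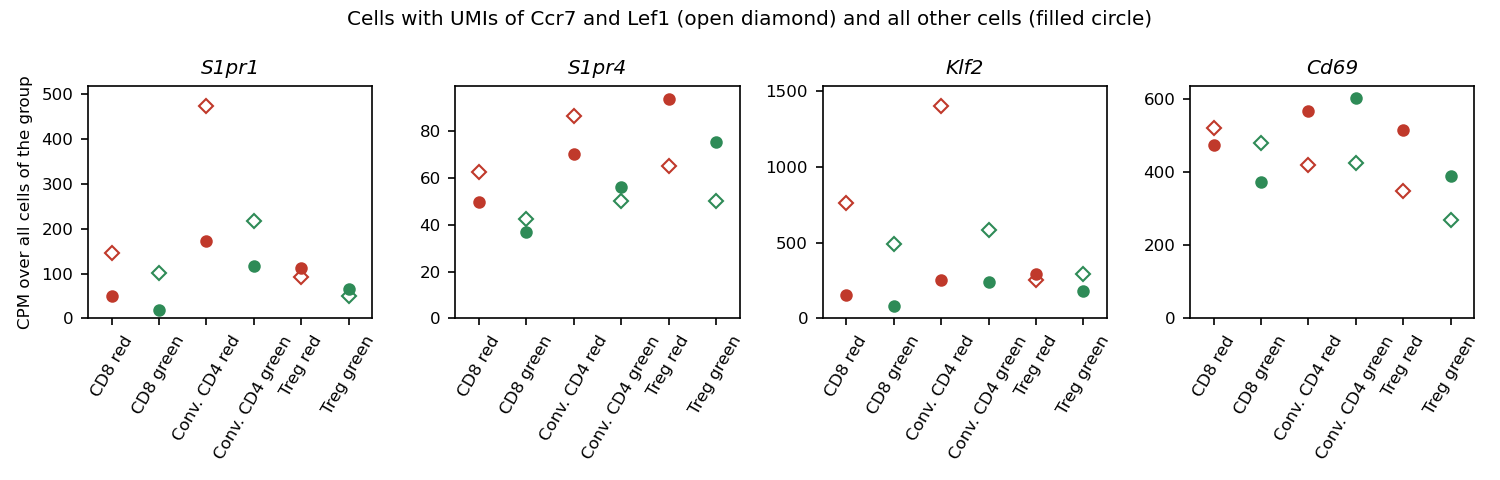
Level (CPM over all cells of a group) of the members inside and outside the gate (at least 1 UMI each of Ccr7 and Lef1), by lineage and colour. Klf2 in red CD8 cells is at 761 CPM inside and 155 CPM outside.

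Across the 24 CD8 sums, the profiles most like that of S1pr1 by Pearson's r of log2(CPM + 10), among 6539 genes with a mean of at least 20 CPM, were those of Cmah (0.78), Klf2 (0.72), Itgax (0.71), Itgb7 (0.70) and Arcn1 (0.69). Those most like Klf2 were Cmah (0.79), Chordc1 (0.77), Nt5c (0.76), Foxn3 (0.75) and Mrps30 (0.73), with S1pr1 in place 9. Those most like S1pr4 were Serp1 (0.73), Lcp2 (0.70), Ppp2ca (0.70), Gzma (0.69) and Dnajc3 (0.68), and those most like Cd69 were Uhrf1bp1l (0.80), Emb (0.79), Crybg1 (0.77), Slc38a2 (0.76) and Zc3hav1 (0.75). S1pr1 and S1pr4 were at 0.51, S1pr1 and Cd69 at 0.41, Klf2 and Cd69 at 0.30, and Klf2 and S1pr4 at 0.14. The sums share wells and pools and differ widely in depth, so these values are descriptions.

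S1pr5 was rare. It was seen in 31 cells in all: 28 CD8 cells with 61 UMIs, 3 green Tconv cells with 5 UMIs and 0 Treg cells. Among red Treg cells 0 of 366 thinned cells held it, which allows a share of up to 0.820%, and among green ones 0 of 176, which allows up to 1.70%. These limits are on cells with a UMI at that depth, not on cells that express the gene. Of the 28 CD8 cells, 9 were red with 14 UMIs and 19 were green with 47 UMIs. They came from 8 of the 12 pools, and 27 had a T cell receptor clonotype, 26 of them distinct. In replicate 1 they were 4 red and 6 green cells (5 and 15 UMIs). The label colours turned the direction, to 17 red and 11 green cells (37 and 24 UMIs). After thinning, 0.358% of red CD8 cells (3 of 839, 95% exact interval 0.0738 to 1.04) and 1.51% of green CD8 cells (10 of 664, 0.724 to 2.75) held S1pr5. These intervals cover counting error only, not the spread between pools. Without thinning the shares were 1.05% of red and 2.78% of green CD8 cells. Over pools, the level was 0.539 ± 0.698 CPM in red and 4.31 ± 6.81 CPM in green CD8 sums (SD, n = 12), lower in red in 7 pools and higher in 1, with the others at 0 in both (exact two-sided sign-flip test of log2(CPM + 10), p = 0.0156, not adjusted). By the label colours red was higher in 5 pools and lower in 3 (exact p = 0.898). The 5 cells with the most UMIs held 26 of the 61. None of the RT day 3 and RT with FTY720 day 3 pools held a CD8 cell with S1pr5. These pools had 28 and 48 CD8 cells at RT day 3 and 29 and 46 with RT and FTY720, of 1542 in all. With S1pr5 this rare, such numbers are too few to show a loss, and a difference between conditions was not tested.

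Chosen by S1pr5, the 28 CD8 cells are described without a test. Pooled, they held 261 CPM of Zeb2, a factor of terminal effector cells, against 110 CPM in the other CD8 cells, 171 against 61.9 CPM of Cx3cr1, a chemokine receptor of circulating effector cells, and 38.2 against 2.68 CPM of Klrg1, an inhibitory receptor of such cells. The Klrg1 UMIs came from 6 of the 28 cells. Gzma, a granzyme, was at 1091 CPM against 377 CPM. Of the same list of effector genes, Id2 was at 1211 against 706 CPM and Klrd1 at 563 against 592 CPM. The residency list went both ways. Xcl1, a chemokine of that list, was at 30.1 CPM against 2035 CPM. Also lower were Rgs2 (44.2 against 151), Itga1 (60.3 against 106), Cxcr6 (366 against 432) and Bhlhe40 (366 against 402). Lower by little were Ahr (34.2 against 38.0), Zfp683 (34.2 against 37.0) and P2rx7 (4.02 against 5.29), and Rgs1 was level (506 against 507). Higher were Itgae (64.3 against 51.5), Prdm1 (60.3 against 36.3) and Runx3 (358 against 294). Tbx21, which encodes T-bet, was close to level (211 against 202 CPM), and Eomes, its relative, was at 30.1 CPM against 65.8 CPM. They held 110 CPM of S1pr1 against 60.6 CPM, 504 CPM of Klf2 against 272 CPM and 456 CPM of Cd69 against 449 CPM, at a median depth of 15966 UMIs per cell against 22636.

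Cd69 was higher in green CD8 cells at RT day 3 than at NT day 3, a comparison across wells, and did not pass in the comparisons of radiation within wells. Green CD8 cells held 818 and 720 CPM of Cd69 in the RT day 3 pools (14 and 20 cells), against 270.5 and 377 CPM in the NT day 3 pools (74 and 162 cells), so that the groups did not overlap. The log2 change was 1.25 ± 0.21 (edgeR, adjusted p = 0.00648). At day 1, within wells, it stood at 451 and 493 CPM after RT and at 425 and 316 CPM in NT, and under FTY720, also within wells, at 470 and 473 CPM with RT and 543 and 453 CPM without, with log2 changes of 0.39 ± 0.20 (edgeR, adjusted p = 1.00) and -0.05 ± 0.21 (adjusted p = 0.958). The mean of the 3 radiation contrasts, which holds the one across wells, was 0.53 ± 0.12 (adjusted p = 0.0178). The day 3 call was lost without either NT day 3 pool and with the colours of the labels (0.91), the mean call without NT day 1 replicate 2 or NT day 3 replicate 1, and both when the colours were summed (0.60 and 0.31). In red CD8 cells Cd69 was at 322 and 584 CPM at RT day 3 and at 403 and 463 CPM at NT day 3. The change of Cd69 was not particular to green CD8 cells. For RT over NT at day 3 its log2 change was 1.25 ± 0.46 in green Tconv cells (edgeR, adjusted p = 0.282). In red Treg cells it was 1.12 ± 0.50 (edgeR, adjusted p = 0.499). It was 1.20 in red Tconv and 1.13 in green Treg cells, with 1 RT day 3 sum each, and 0.11 in red CD8 cells.

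Of the 4 members tested, Cd69 alone was called in these comparisons of green CD8 cells. There 5.92% of 7960 genes were called for RT over NT at day 3 and 9.51% for the mean. In the same day 3 comparison 9 of 10 interferon-stimulated genes rose (list median 2.85 against -0.02 over all genes), led by Rsad2, an antiviral enzyme (log2 change 3.45 ± 0.75, edgeR, adjusted p = 0.0195). Gna13 (1.18 ± 0.25, adjusted p = 0.0177), Dock2, which drives T cell migration (0.72 ± 0.19, adjusted p = 0.0495), and Il7r (1.60 ± 0.34, adjusted p = 0.0172) rose, Zfp683 (-4.55 ± 0.63, adjusted p = 0.00374) and Xcl1 (-2.57 ± 0.58, adjusted p = 0.0237) fell, and Prdm1, which encodes Blimp-1, rose (1.76 ± 0.39, adjusted p = 0.0222). Hspa8, a chaperone, was the 1 of 16 dissociation and heat shock genes called (-0.52 ± 0.12, adjusted p = 0.0291). The part of these genes, and of interferon, in the Cd69 difference was not tested.

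S1pr1 did not pass in any of the 22 radiation comparisons, which called 0 to 9.51% of all genes and over which its log2 change ran between -1.29 and 1.32. In red CD8 cells it was at 20.6 and 106 CPM at RT day 3, against 74.0 and 78.6 CPM at NT day 3, and at 69.7 and 126 CPM at RT day 1, against 92.3 and 78.3 CPM at NT day 1. In green CD8 cells it was at 70.6 and 39.8 CPM at RT day 3, against 30.6 and 41.3 CPM at NT day 3. Replicates of 1 condition thus differed by as much as the conditions did, and radiation effects on S1pr1 below this spread were not detectable. S1pr4 ran between -2.65 and 0.80 over the same comparisons and passed in none.

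**Figure D5:**
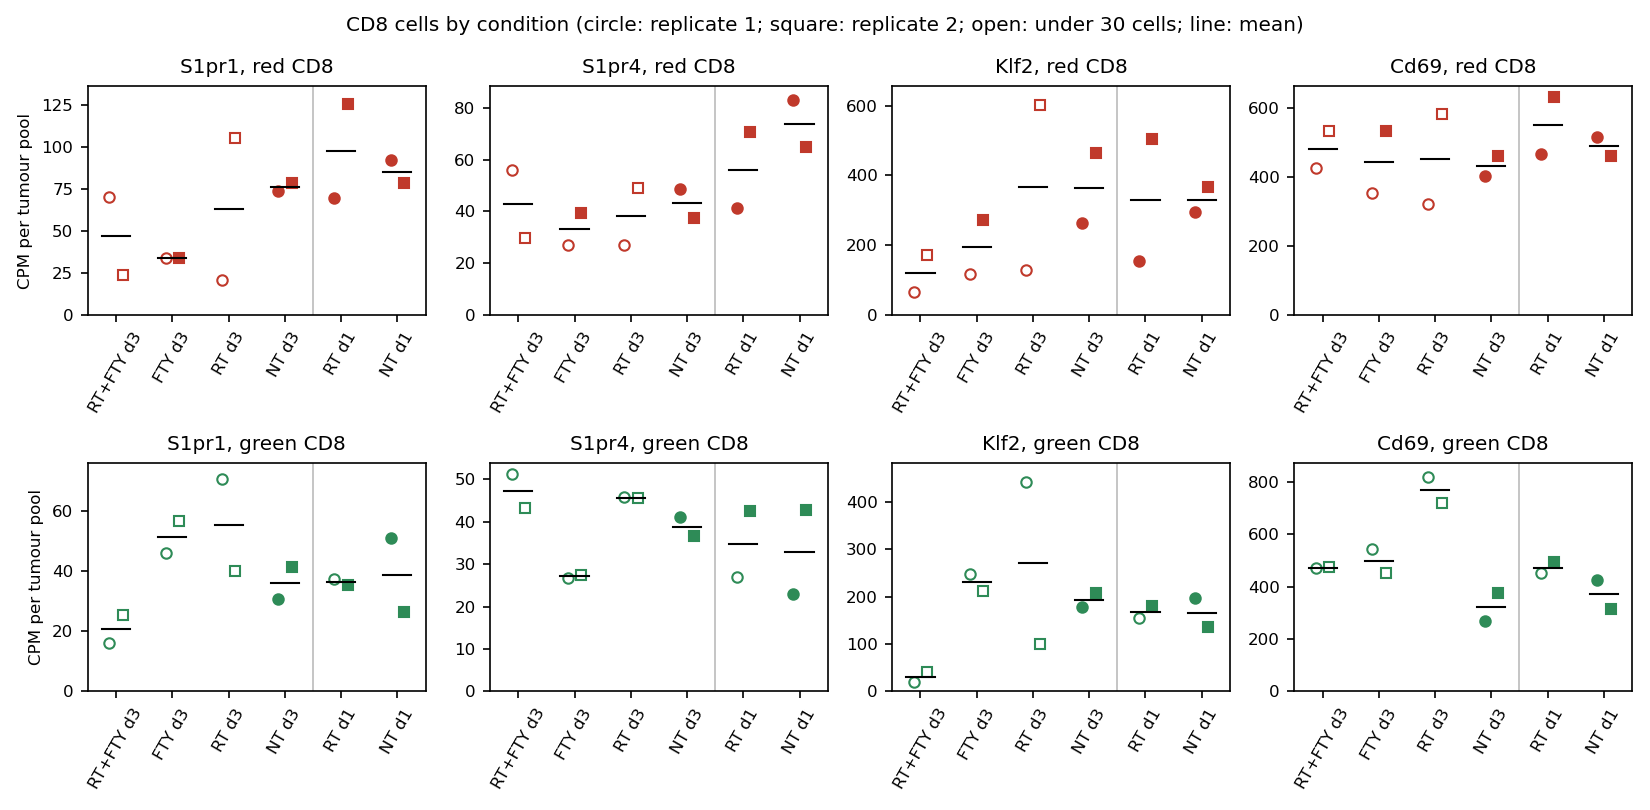
Level of S1pr1, S1pr4, Klf2 and Cd69 (CPM) in CD8 cells by condition and colour; each point is 1 sum of a tumour pool, open where it held under 30 cells, and lines are means. Green CD8 cells of RT with FTY720 lie at 19.2 and 40.7 CPM of Klf2, and those of RT day 3 at 818 and 720 CPM of Cd69.

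Klf2 was low in green CD8 cells after RT with FTY720. It stood at 19.2 and 40.7 CPM there (6 and 16 UMIs in 16 and 21 cells), against 249 and 213 CPM with FTY720 alone (11 and 27 cells), and against 441 and 99.6 CPM with RT alone (14 and 20 cells). All of these shared wells, and the 2 sums of RT with FTY720 were below the 10 other green CD8 sums, of which the lowest was 99.6 CPM. The log2 change was -2.87 ± 0.61 over FTY720 alone, at an adjusted p of 0.0539 (edgeR), and -3.08 ± 0.61 over RT alone (edgeR, adjusted p = 0.401). With the replicate number as a block, which marks the shared well for these 3 conditions, the first was -2.86 and passed (adjusted p = 0.0455), and the second was -2.98 and did not (adjusted p = 0.414). DESeq2 called both, the first at -2.90 (adjusted p = 2.95e-04) and the second at -3.14 (adjusted p = 2.88e-04). Under the label colours the first was -1.29 (adjusted p = 0.509) and the second -2.30 (adjusted p = 0.692). In the comparison with FTY720 alone 0 of 4 members were called and 0.829% of all genes were, and in the comparison with RT alone 0 of 7960 genes were called, with 627 at an unadjusted p under 0.05.

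In red CD8 cells Klf2 was at 66.4 and 172 CPM after RT with FTY720, against 118 and 271 CPM with FTY720 alone and 130 and 603 CPM with RT alone, and neither red comparison passed (5.95% of 9673 genes called over FTY720 alone and 0.0103% over RT alone). Ccr7+ Lef1+ cells were 1 of 13 and 1 of 25 red CD8 cells and 0 of 16 and 1 of 21 green CD8 cells after RT with FTY720. With FTY720 alone they were 5 of 14 and 12 of 34 red and 1 of 11 and 3 of 27 green cells, and with RT alone 2 of 14 and 10 of 28 red and 2 of 14 and 4 of 20 green cells. Without Ccr7+ Lef1+ cells the green changes were -2.22 over FTY720 alone (adjusted p = 0.147) and -2.53 over RT alone (adjusted p = 0.469). Red Treg cells held 22.5 and 188 CPM of Klf2 after RT with FTY720 (6 and 8 cells), against 500 and 307 CPM with RT alone. Their log2 change was -1.95 ± 0.72 (edgeR, adjusted p = 0.414). Tconv cells of both colours summed held 628 and 365 CPM after RT with FTY720, against 413 and 693 CPM with RT alone.

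For FTY720 over none, edgeR's fits per colour called no member in 16 comparisons, which share samples and called 0 to 0.142% of all genes. DESeq2 made 3 such calls. They were Klf2 in green CD8 cells for RT with FTY720 over RT, and Cd69 in red Tconv cells for the same contrast (-2.02, adjusted p = 0.0483) and for the mean (-1.45, adjusted p = 0.0283). Without the filter on low counts edgeR made 15, all lower with FTY720 except S1pr5 in green CD8 cells for FTY720 over NT. In the filtered fits Klf2 and S1pr1 each had a negative log2 change in 14 of the 16 comparisons. S1pr4 did in 11 and Cd69 in 8. Averaged over the irradiated arm, which lay within wells, and the unirradiated arm, which lay across them, Klf2 had a log2 change of -1.42 ± 0.38 in green CD8 cells (edgeR, adjusted p = 0.867) and -1.18 ± 0.49 in red ones (adjusted p = 0.644). S1pr1 had -0.41 ± 0.33 in green CD8 cells (adjusted p = 0.915) and -0.88 ± 0.42 in red ones (adjusted p = 0.693). Red CD8 cells held 33.9 and 33.6 CPM of S1pr1 with FTY720 alone, against 74.0 and 78.6 CPM in NT day 3 (log2 change -1.14 ± 0.56, adjusted p = 0.634, across wells). With RT and FTY720 they held 69.9 and 24.1 CPM, against 20.6 and 106 CPM with RT alone. In these means 0 of 7960 genes were called in green and 0 of 9673 in red CD8 cells, that is 0% each, with 456 and 703 genes at an unadjusted p under 0.05 in green and red cells and 3 and 5 called by DESeq2.

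In red Treg cells S1pr4 was at 15.0 and 31.3 CPM with RT and FTY720, against 102 and 70.2 CPM with RT alone, and the mean FTY720 change was -1.47 ± 0.42 (edgeR, adjusted p = 0.535). The sums held 6 to 15 cells. The 1 gene of 7815 called there (0.0128%) was Ccr7, at 3.64 ± 0.40 (adjusted p = 0.00407). S1pr1 in green Tconv cells was at 55.5 CPM in the 1 FTY720 sum and at 76.1 and 0 CPM with RT and FTY720, against 300.3 and 172 CPM with RT alone and 189 and 127 CPM in NT day 3, and the mean FTY720 change was -1.92 ± 0.54 (adjusted p = 0.449). In red Tconv cells Cd69 had a mean FTY720 change of -1.48 ± 0.27 (adjusted p = 0.249), which rests on 1 sum each of FTY720, RT with FTY720 and RT.

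Between days, 1 member passed in 1 of 12 comparisons. Klf2 in green Treg cells stood at 746 CPM at RT day 3, in the single sum of at least 5 cells (75 UMIs in 7 cells), against 374 and 132 CPM at RT day 1 and 172 and 273 CPM at NT day 3. The log2 change was 1.98 ± 0.45 over RT day 1 (edgeR, adjusted p = 0.0259) and 1.80 ± 0.41 over NT day 3 (adjusted p = 0.0250), both across wells, and the median over all genes was -0.12 over RT day 1 and -0.15 over NT day 3. Of 7509 genes, 1.93% were called over RT day 1 and 1.73% over NT day 3. The lone sum is assumed to vary like the other groups, and the other replicate, with 2 cells and 0 Klf2 UMIs, was not summed. In NT tumours, within wells, no member passed between day 3 and day 1 in any lineage and colour, where at most 0.0207% of genes were called.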

How the data were processed

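Libraries of RNA, hashtags and T cell receptors came from the 10x GEM-X 5' v3 kit, per the labels' protocols. The submitters' processing notes name Cell Ranger 8.0.1 and build mm39. The authors deposited UMI counts per gene and hashtag for each cell barcode in 4 wells. Cells were kept from 500 detected genes upward with mitochondrial UMIs no higher than 10%, and a top hashtag of at least 20 UMIs and 3 times the next, which left out 0 further cells. No doublet caller was run; 90 cells (3.28%) with 2 or more TCR beta chains stayed in, except in an alternative. Colours follow the hashtag names in the matrices; the replicate 1 and label-colour values of listed genes, shares and S1pr5 were chosen after seeing the data.

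Counts were summed per pool, colour and lineage (at least 5 cells) and tested with edgeR 4.0.16 (quasi-likelihood, TMM, filterByExpr) in R 4.3.3, with Benjamini-Hochberg adjustment over all genes at 0.05; DESeq2 1.42.0 was an alternative. The steps were tested on simulated data. Lineage and colour fits had the pool as a block; condition fits had a mean per condition. Differences by Klf2 or Cd69 UMIs used thinned cells (5000 UMIs, at least 5 cells a side) and an exact sign-flip test over pools. Percent shares and CPM were computed here.

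Conditions of a shared well have the same replicate number, per the titles, and each number covers 2 wells; the correlation of same-well pools' replicate differences over 6530 genes ran between -0.05 and 0.34 (6 pairs), against -0.14 to 0.14 across wells (9 pairs).

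Named genes were the 5 members, up to 4 called genes of each list with the greatest change, and the 5 genes most like S1pr1, S1pr4, Klf2 and Cd69. One gene of the homing list and the results that need it are not reported here. The members and lists were chosen with earlier results of these data known.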

Additional observations from a re-analysis of the deposited data

Results flagged for a closer look

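One of the 8 groups of 4 to 10 sums examined held a sum far from the others. Klf2 in green Treg cells was at 746 CPM in RT day 3 replicate 1 (75 UMIs in 7 cells), while the other 7 sums lay between 124 and 374 CPM, and the gap to the nearest was 0.598 of the whole range, above Dixon's 95% critical value. Chance marks about 1 in 20 such groups where all sums share 1 distribution. The other 7 sums came from other conditions, so the test cannot tell an odd sum from a difference between conditions. Both calls of Klf2 in green Treg cells at RT day 3 rest on this sum.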

How the results depend on the processing

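Depth limited the treated day 3 wells, whose sums held few cells. Leaving out pools apart, the main results held their direction and side of the threshold in 228 cases, and 35 counts moved by over 1.5 times, 29 calls were lost and 4 reversed; of the other values 258 held, 25 newly passed and 19 reversed. Exceptions follow as log2 changes or genes called, and the cause was not tested. With the label colours red over green was -0.28 (S1pr1), -0.83 (Klf2) and -0.21 (Cd69) in CD8 cells, -0.43 (S1pr1) and -0.55 (Klf2) in Treg cells and -0.63 (S1pr1), -0.97 (Klf2) and 0.46 (Cd69) in Tconv cells, with 0, 0 and 1 genes called in CD8, Treg and Tconv cells; green CD8 Cd69 was 0.91 (RT over NT, day 3) and 0.39 (mean), with 46 and 158 genes; green Treg Klf2 was 1.38 over NT day 3 and 0.47 over RT day 1; FTY720 means gave 1 gene in green and 1 in red CD8 cells, Cd69 0.063 in green and -0.10 in red CD8 and 0.79 in red Tconv cells, and S1pr1 0.16 in red CD8 cells. Without Ccr7+ Lef1+ cells, a setting chosen after seeing the data, red over green called 77 genes in Treg and 2 in Tconv cells (S1pr1 0.59, Klf2 0.35), Klf2 was -0.15 in Treg over Tconv and 0.91 in Treg over CD8 cells, and FTY720 means were 0.90 (S1pr1) and 0.036 (Cd69) in green and 0.22 (S1pr4) in red CD8 cells; by state, Klf2 by Cd69 was 0.95 and S1pr4 by Klf2 0.50. Green cells alone called 2663 (Treg over CD8), 1784 (Tconv over CD8) and 1399 genes (Treg over Tconv), with Klf2 at 0.84 (Tconv over CD8), -0.70 (Treg over Tconv) and 0.14 (Treg over CD8), and gave S1pr1 by Cd69 0.83, S1pr4 by Klf2 0.34 and Cd69 by Klf2 0.60; red cells alone called 2025 genes (Tconv over CD8), with S1pr4 0.40 and Cd69 -0.16 there and Cd69 0.050 in Treg over Tconv cells. Without the filter on low counts, which lets in sparse genes, 930, 461 and 314 genes differed by colour in CD8, Treg and Tconv cells, 947 and 1224 by radiation in green CD8 cells (day 3, mean), and 80 and 152 by FTY720 in green and red CD8 cells. DESeq2 called 720, 264 and 124 by colour in CD8, Treg and Tconv cells and 3 and 5 by FTY720 in green and red CD8 cells, with S1pr1 red over green in CD8 cells 0.76 and Klf2 in Treg over CD8 cells 0.0039. At least 2 lineage UMIs gave 50 Treg colour genes, Cd69 -0.26 in Treg over Tconv and Klf2 0.035 in Treg over CD8 cells; sums of at least 10 cells gave 27 and Cd69 -0.25; dropping cells with 2 or more TCR beta chains gave 82. Thinning to 10000 UMIs gave S1pr1 by Cd69 0.94, and the sign-flip test gave S1pr1 red over green in CD8 cells 0.55. With no pool block the colour fits called 149 genes in CD8 and 16 in Tconv cells, with S1pr1 0.88 in CD8 and 1.08 in Tconv and Klf2 1.21 in Tconv cells. With a replicate block the FTY720 mean called 2 genes in red CD8 cells, and Klf2 in green CD8 cells of RT with FTY720 over FTY720 passed at -2.86; no other member's call in the per-colour fits changed. Colours summed gave Cd69 0.60 (day 3) and 0.31 (mean), 1226 genes for the radiation mean, Klf2 1.04 over NT day 3 and 0.998 over RT day 1 in Treg cells, and an FTY720 mean of Cd69 of 0.050; with the block, chosen after seeing the data, these were 1157 genes, 1.07, 1.06 and 0.052, FTY720 called 2 genes, and Klf2 of RT with FTY720 in CD8 cells passed over RT (-2.06) and over FTY720 (-1.39). Leaving out 1 pool at a time, colour counts ran 206 to 571 (CD8), 20 to 159 (Treg) and 26 to 66 (Tconv), each lowest without RT day 1 replicate 2, radiation counts 6 (without NT day 3 replicate 2) to 506 (day 3) and 332 (without NT day 3 replicate 1) to 675 (mean) and FTY720 counts 0 to 1 (red CD8); S1pr1 red over green in CD8 ran 0.75 to 1.06, Klf2 in Tconv 1.20 to 1.57, S1pr4 in Tconv over CD8 0.36 to 0.55, Cd69 in Treg over Tconv -0.38 to -0.24, Cd69 in green CD8 1.05 to 1.50 (day 3) and 0.46 to 0.61 (mean), and, among those that reversed, Klf2 in Treg over CD8 -0.19 to 0.058, FTY720 Cd69 -0.15 to 0.077 (green) and -0.10 to 0.29 (red) and S1pr4 -0.34 to 0.098 (red).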
